A study of Homo sapiens with 20 samples.

Results

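Of 1873 merged super-enhancer (SE) regions on chromosomes 1 to 22 and X, 207 were called in 11 or more of 16 H3K27ac ChIP-seq libraries of HCT-116 cells and are described here as the core SE regions. An SE list had been deposited for each library, and SEs of different libraries that overlapped by at least 1 bp were joined into a region. The members were thus chosen by the SE calls, so how often, how widely and how strongly they were marked compared with the other SE regions is a description and was not tested. The HCT-116 line was grown from a human colorectal cancer and was used either wild type (WT) or as FBXW7-/- cells (KO), both bought from a company. All KO libraries came from this 1 knockout line, so loss of FBXW7 and any other difference between the lines cannot be told apart. The cells received a control esiRNA (esiCT) or an esiRNA against HDAC4 (esiHDAC4) for 48 h in all. Part of them got no drug (UNT), and the others were given 50 µM oxaliplatin (OXPT) for the last 24 h. The 8 groups, WT or KO with esiCT or esiHDAC4 and UNT or OXPT, held 2 libraries each, lettered A and B. The letters name biological replicates, and the labels add that material of several experiments was pooled, so the p-values below measure the spread between these libraries.

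H3K27ac is an acetyl mark that the acetyltransferases p300 and CBP place on active enhancers and promoters. An SE is a stretch of closely spaced enhancers carrying an unusually large amount of such a mark, and SEs often lie near genes that define a cell type or that a tumour depends on. FBXW7 is the substrate receptor of an SCF ubiquitin ligase, HDAC4 is a class IIa deacetylase that acts on MEF2 target genes through the NCoR-HDAC3 complex, and oxaliplatin is a platinum drug that forms DNA adducts and is used against colorectal cancer.

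The place of the strongest H3K27ac summit in a core region varied from library to library. It lay within 500 bp of the same place in a median of 5 libraries per region. In 6 of the 207 regions it was at 1 place in 11 or more libraries. With summits linked at 300 bp, 202 core regions held at least 1 summit shared by 11 or more libraries and 26 held a summit shared by all 16. Over the 728 summits shared by 11 or more libraries the median SD of the position was 263 bp. The following 300 bases of hg38, plus strand, come from 4 of the regions called in every library. They are centred on the mean position of the strongest summit shared, by this linking, by all 16 libraries. The linked summits of the 16 libraries spread over 678 bp in GRIN2B, 881 bp in LIF, 983 bp in ERRFI1 and 1277 bp in CERKL. Some of them thus lie outside the bases shown. Lower case is plain sequence, and capitals mark a match to 1 of the searched motifs.
GRIN2B, chr12:13560186-13560485: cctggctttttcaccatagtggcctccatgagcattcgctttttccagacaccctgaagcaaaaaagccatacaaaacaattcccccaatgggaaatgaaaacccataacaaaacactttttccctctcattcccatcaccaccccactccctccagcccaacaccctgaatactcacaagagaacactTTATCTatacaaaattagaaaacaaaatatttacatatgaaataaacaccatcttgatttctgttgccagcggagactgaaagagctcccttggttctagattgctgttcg
LIF, chr22:30209607-30209906: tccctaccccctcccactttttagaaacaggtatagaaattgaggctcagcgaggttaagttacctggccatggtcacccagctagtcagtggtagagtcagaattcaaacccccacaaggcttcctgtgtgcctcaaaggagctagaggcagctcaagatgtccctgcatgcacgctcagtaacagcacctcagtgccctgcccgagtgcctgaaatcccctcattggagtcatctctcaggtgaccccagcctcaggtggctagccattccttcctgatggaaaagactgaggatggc
ERRFI1, chr1:8181658-8181957: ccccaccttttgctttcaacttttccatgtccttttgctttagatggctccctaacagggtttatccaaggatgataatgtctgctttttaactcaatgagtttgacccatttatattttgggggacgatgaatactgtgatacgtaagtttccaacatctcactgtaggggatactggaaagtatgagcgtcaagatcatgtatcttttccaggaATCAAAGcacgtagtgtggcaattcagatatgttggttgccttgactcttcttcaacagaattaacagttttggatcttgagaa
CERKL, chr2:181743687-181743986: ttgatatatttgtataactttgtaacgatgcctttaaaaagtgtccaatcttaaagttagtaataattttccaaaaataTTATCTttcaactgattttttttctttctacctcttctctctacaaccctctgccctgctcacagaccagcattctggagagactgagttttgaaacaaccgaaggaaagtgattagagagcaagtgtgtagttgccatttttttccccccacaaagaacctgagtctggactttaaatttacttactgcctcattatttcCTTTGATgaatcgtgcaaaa

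The GRIN2B window lies in the body of this NMDA receptor subunit gene, and its summit had a mean fold enrichment over background of 6.36 and a position SD of 219 bp over the 16 libraries. Its capitals, TTATCT, match the GATA letters AGATAA on the other strand. The LIF window belongs to the region of the gene for the cytokine leukaemia inhibitory factor, with a mean fold of 6.74 and an SD of 253 bp, and holds no match. The ERRFI1 window (mean fold 6.55, SD 289 bp) has a TCF/LEF match, ATCAAAG, in the region of the gene for an inhibitor of the EGF receptor kinase. The CERKL window (mean fold 5.44, SD 346 bp) is intergenic and holds both a GATA match and a TCF/LEF match.

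Motif letters were searched on both strands in such a 300-base window at the best shared summit of each of the 1873 regions. The letters were TGACTCA or TGAGTCA for AP-1, ATCAAAG for TCF/LEF, ACATTCC for TEAD, TGTTTAC for FOX, TTTATNG for CDX, TAAAAATA for MEF2, GGGCGGG for SP/KLF, ACCGGAAG for ETS, CACGTG for the MYC E-box, AGATAA for GATA and CAAAGTCCA for HNF4, and matches of different motifs may overlap. CDX letters were found in 50 of the 207 core windows (24.2%) beside 15.7% of all windows. FOX letters were found in 5.80% of core windows beside 3.79% of all, and GATA letters in 15.9% beside 15.3%. MEF2 letters stood at 11.6% beside 11.9%, TCF/LEF at 3.86% beside 3.47% and AP-1 at 3.38% beside 4.64%. TEAD letters were in 3.86% of core windows and 4.54% of all, ETS letters in 0.483% and 0.160%, HNF4 letters in 0.483% and 0.427%, and the E-box in 1.45% and 3.68%. SP/KLF letters, common near start sites (33.1% of RefSeq promoters of the same length), were in 0.966% of core windows and 6.09% of all. The median GC content was 41.7% in core windows and 47.3% over all windows, and AT-rich letters such as the CDX letters are met more often in AT-rich sequence. These matches describe letters and are not binding sites.

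Within the core, 10 miRNA genes were found, each in a region of its own, and RefSeq (GRCh38.p14) gave mature sequences for 9 of them. A further 11 miRNA genes with a mature sequence lay within 5 kb of a core region. The 5 mature sequences below are those of widely expressed cancer-related miRNAs beside core regions on chromosomes 17, 7 and X, and the seed, bases 2 to 8, is in capitals.
hsa-miR-21-5p, chr17:59841273-59841294, + strand: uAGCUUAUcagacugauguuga
hsa-miR-29a-3p, chr7:130876748-130876769, minus strand: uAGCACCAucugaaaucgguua
hsa-miR-29b-3p, chr7:130877467-130877489, minus strand: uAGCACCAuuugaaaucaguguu
hsa-miR-221-3p, chrX:45746180-45746202, minus strand: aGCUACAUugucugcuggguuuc
hsa-miR-222-3p, chrX:45747036-45747056, minus strand: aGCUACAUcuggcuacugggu

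miR-21 lies inside a core region at chr17:59823174-59854117 in the body of VMP1, which was called in all 16 libraries and had a median strongest fold of 7.70. miR-29a and miR-29b share the seed AGCACCA and lie 2.36 and 1.63 kb outside the 138 kb region on chromosome 7 whose nearest protein-coding start site is that of MKLN1. miR-221 and miR-222 share the seed GCUACAU and lie 3.71 and 2.85 kb from a region on the X chromosome that holds the start of their host transcript MIR222HG and that is taken up again under the KO comparison. Start sites of 46 named lncRNA genes lay in 38 core regions, among them MALAT1, UCA1, MIR31HG, MIR23AHG and ELF3-AS1.

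1 library stood apart. KO esiHDAC4 UNT B held 1752 peaks, while the library with most peaks held 27927, and 51 core regions were called as SEs in it. The other 15 libraries each called between 142 and 206 of the 207 core regions. The number of core regions called differed 4.04-fold between the highest and lowest libraries, and the number of other SE regions 203-fold, from 5 to 1013. Without KO esiHDAC4 UNT B these became 1.45-fold and 39.0-fold. No read totals were among the files used here, so the reads behind the background at peaks stood in for depth. The lowest background per library ran from 1.02 reads in KO esiHDAC4 UNT B to 3.07 in WT esiCT UNT B, with a median of 2.15 in WT and 1.52 in KO libraries, and the median summit of a core peak rested on 13 to 25 reads per library. Start sites of the colon epithelial markers KRT18, EPCAM, KRT8 and KRT19 carried a peak in 15 or 16 libraries each, CLDN4 in 13, CDX2 and ELF3 in 10, CDH1 in 8, VIL1 in 1 and CDH17 in none. Of the markers of other cell types COL1A1 had a peak in 11 libraries, PDGFRB had one in 1 library, and the other fibroblast markers, the leukocyte markers PTPRC, CD3E, CD14 and SPI1 and all endothelial markers had none.

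**Figure D1:**
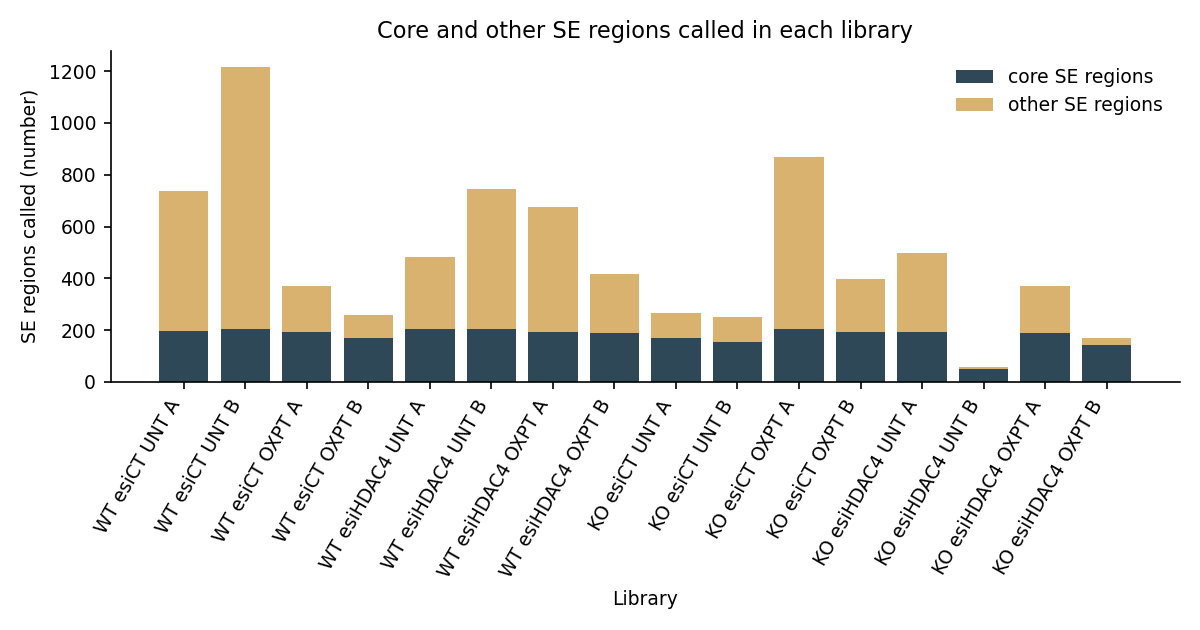
Number of core SE regions and of other SE regions called in each of the 16 libraries (bars, starting at 0). The core count lies between 142 and 206 in 15 libraries and is 51 in KO esiHDAC4 UNT B, while the count of other regions runs from 5 to 1013.

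Core regions were called in 11 (29 regions), 12 (31), 13 (34), 14 (26), 15 (47) or 16 libraries (40). Of the 47 regions called in 15 libraries, 42 lacked only KO esiHDAC4 UNT B, and 82 regions were called in all 15 libraries other than that one. The core made up 11.1% of the regions and 31.1% of the merged length, 10.8 Mb. The median core region spanned 44.4 kb (8.71 to 268 kb), held 8.5 peaks and had a strongest summit fold of 6.54, and the median other region spanned 11.8 kb, held 1.5 peaks and had a strongest summit fold of 4.61. Within the core the span was wider with more calls, from a median of 27.7 kb in 11 libraries to 48.8 kb in 15 and 75.2 kb in 16. A merged region can only grow as more lists join it, so span and number of calls share their source.

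**Figure D2:**
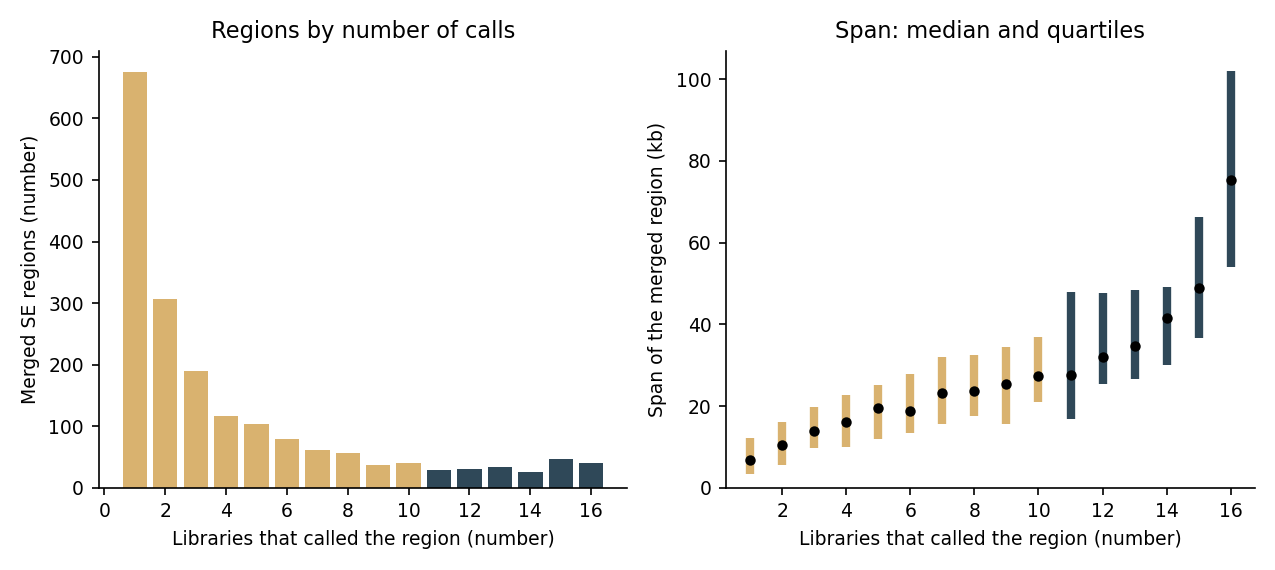
Number of merged SE regions (left, bars from 0) and their span in kb (right; point for the median, bar from lower to upper quartile) by the number of libraries that called them. The median span climbs from 6.85 kb for 1 library to 27.7 kb for 11 and 75.2 kb for 16.

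On both sides of the threshold lay regions of similar width. The widest called in exactly 11 libraries were those of BAHCC1 (73.6 kb, median strongest fold 6.03), CLDN4 (71.3 kb, 6.31) and CAV2 (63.7 kb, 6.04), each called in 7 WT and 4 KO libraries. The widest called in 10 and therefore not members were those of BLID (80.6 kb, 8.55, called in 3 WT and 7 KO libraries), EHF (79.6 kb, 5.05, 7 WT and 3 KO) and GLG1 (54.3 kb, 5.84, 6 WT and 4 KO).

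The widest core regions held far more peaks than the median one. PCDH7, a protocadherin gene, had the widest core region, chr4:30714113-30982236, 268 kb over its start site, with a median of 66 peaks and the highest median fold of the core, 9.70. A second region of 108 kb followed in an intron of the same gene. The region of ERRFI1 spanned 242 kb (chr1:8004257-8245961) with a median of 55 peaks and a fold of 7.99. PPP3CA, the gene of a calcineurin catalytic subunit, held a region of 155 kb in its body with a fold of 9.40, and PDE4B, a cAMP phosphodiesterase gene, one of 125 kb over its start site with a fold of 9.05. PDP1, the gene of a pyruvate dehydrogenase phosphatase, lay in a region of 159 kb with a fold of 7.74. Other wide regions held no protein-coding start site. One of 181 kb lay 106 kb from the start of KRR1 (fold 8.86), one of 114 kb 526 kb from NYAP2 and one of 102 kb 92.5 kb from IRS1, which encodes an adaptor of the insulin receptor. All of these were called in all 16 libraries. High folds were also seen in intergenic regions nearest to MTAP (9.18), MKLN1 (8.93, 15 libraries), KITLG (8.90) and CERKL (8.78), and the highest fold in a single library, 16.67, was that of a region in the body of DLGAP1, nearest to the start of TGIF1, in WT esiCT UNT B.

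**Figure D3:**
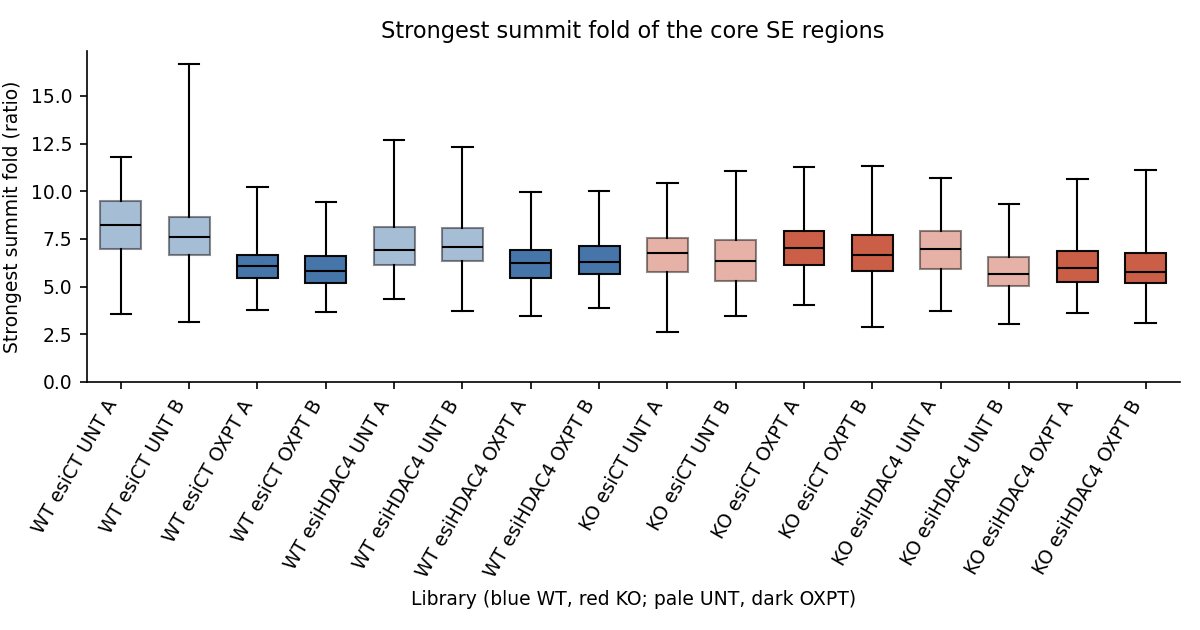
Strongest summit fold of the core regions in each library (deposited fold over local background; box for quartiles, line for median, whiskers from lowest to highest). Medians run from 5.68 in KO esiHDAC4 UNT B to 8.25 in WT esiCT UNT A. In WT esiCT and in WT esiHDAC4 the medians of both OXPT libraries lie below those of both UNT libraries.

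The PCDH7 region showed how peaks inside a core region varied. In WT esiCT it held 47 and 43 peaks in the UNT libraries (A, then B) and 71 and 92 in the OXPT libraries. With esiHDAC4 the WT libraries held 58 and 53 peaks without OXPT and 63 and 74 with it. The KO libraries held 69 and 73 (UNT) and 48 and 79 (OXPT) with esiCT, and 53 and 70 (UNT) and 60 and 73 (OXPT) with esiHDAC4, so the UNT and OXPT counts overlap in KO. The deposited folds ran the other way in WT esiCT, 11.70 and 12.54 for UNT and 7.30 and 6.94 for OXPT. The peaks in WT esiCT covered 211 and 228 kb in UNT and 121 and 100 kb in OXPT, so the OXPT libraries of this pair of groups held more but narrower peaks. In KO esiCT the folds were 9.70 and 9.70 for UNT and 9.79 and 10.66 for OXPT, and there the OXPT libraries were at or above the UNT ones. With esiHDAC4 they were 10.29 and 10.80 (UNT) and 8.52 and 8.19 (OXPT) in WT, and 10.70 and 9.20 (UNT) and 7.78 and 8.22 (OXPT) in KO, so OXPT libraries were lower than UNT libraries in 3 of the 4 pairs of groups.

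Regarding position, 78 of the 207 core regions held the start site of a protein-coding gene (87 genes), 43 lay in a gene body with at least 1 exon, 8 lay within an intron and 78 were intergenic. For the regions without a start site the nearest one was at a median of 57.3 kb. Core regions also lay close to each other. Within 200 kb of one another, 63 regions formed 28 clusters, of which the longest was a row of 4 regions over 414 kb between KRR1 and PHLDA1, a gene induced by growth factor signalling. Clusters of 3 lay at FAT1, at CAV2 and MET (365 kb), at IFNE and MTAP (271 kb), at MSRB3 and HMGA2 (365 kb) and at HM13, ID1 and BCL2L1 (176 kb).

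The gene lists were chosen with earlier results of these data known, so their shares are a description and were not tested. Genes of these lists were present among the 87 start-site genes as follows, beside a share of 0.436% of all protein-coding genes. Of 36 EGFR and MAPK signalling genes 5 had a start site in a core region. These were EREG, the gene of the ligand epiregulin (61.6 kb, 15 libraries, fold 7.77), the receptor tyrosine kinase genes MET (47.3 and 21.0 kb in a pair of regions) and EPHA2 (50.5 kb, 13 libraries), the inhibitor ERRFI1 and the immediate early gene IER2. Of 51 epithelial keratin, junction and adhesion genes 5 did so, the tight junction gene CLDN4, the integrin genes ITGB4 (15 libraries, fold 5.97) and ITGA3 (13 libraries, 6.58), the laminin gene LAMA5 and the actin cross-linker gene ACTN4, and regions overlapped KRT23 and KRT80 without their start sites. Of 48 WNT pathway genes RNF43, whose product removes WNT receptors from the cell surface (74.8 kb, 16 libraries, fold 6.78), and the beta-catenin cofactor gene BCL9L did so, and a region in the body of TCF7L2 had a low fold of 4.61. Of 31 intestinal epithelial transcription factor genes ELF3 (113 kb, 12 libraries) and ZNF217 (63.4 kb, 13 libraries) did so. The TGF-beta list had TGFBR2 and ID1 of 22 genes, the YAP and TEAD list WWTR1 of 23, and the p53 list GDF15 of 30, while 0 of 26 AP-1 and ATF genes and 0 of 24 class IIa HDAC, MEF2 and FBXW7-related genes were found. Some members of the last pair of lists had start sites in SE regions called less often, such as FOSL1, JUNB and HDAC7.

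The core was called more often in WT than in KO libraries. All 8 WT libraries called 132 of the regions and all 8 KO libraries called 46, and 135 regions were called in more WT than KO libraries, 58 in as many and 14 in fewer. The 135 include the 42 regions that lacked only KO esiHDAC4 UNT B, the KO library with 51 core calls. 8 regions were called in every WT library and in 3 KO libraries, those nearest to FAT1, MAGI1, KITLG, RAD51B, KCNH3, MYO1E, ZFP36L1 and DIPK2B. The reverse was less marked, with OLA1 called in 5 WT and 8 KO libraries and SCG2 and CLDND1 in 6 and 8. These counts chose the members in part and were not tested. OXPT libraries called a region more often than UNT libraries for 98 regions, as often for 75 and less often for 34, with a difference of 1 library at most for 173. esiHDAC4 libraries called 28 regions more often, 68 as often and 111 less often than esiCT libraries. KO esiHDAC4 UNT B is 1 of the UNT and 1 of the esiHDAC4 libraries. The 42 regions that it alone lacked are thus among the 98 for OXPT and among the 111 for esiHDAC4.

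For the tests, the fold of the strongest summit in each region was compared on the log2 scale with limma over the 838 SE regions that had a peak in at least 14 libraries, each library centred on its median, with Benjamini-Hochberg adjustment over all 838 and a threshold of 0.05. All 207 core regions were among them, 153 with a peak in all 16 libraries, 52 in 15 and 2 in 14, and 53 of the 56 missing values were in KO esiHDAC4 UNT B. Missing values stayed missing. Between KO and WT, 9 core regions changed (4.35%), beside 5.73% of all regions tested, so the core share was near the background. Without centring, the median of all regions was -0.09 (KO minus WT, log2), and 2 core regions were higher and 8 lower in place of 4 and 5. Without KO esiHDAC4 UNT B 7 core regions were called.

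4 core regions rose in KO relative to the median. A region in the body of KRT80, an epithelial keratin gene, at chr12:52143287-52186810, had folds of 3.75 to 7.70 in the 8 WT libraries (median 6.0) and of 6.66 to 9.05 in the 8 KO libraries (median 8.21). The ranges overlap, and the KO libraries lie at the top. The difference was 0.51 (SE 0.11), or 1.42-fold, with an adjusted p of 0.0112. A region in the body of TANGO6, nearest to the start of the hyaluronan synthase gene HAS3 (chr16:69031312-69079834), had folds of 4.14 to 6.17 in WT (median 4.99) and 5.01 to 9.01 in KO (median 6.69), a difference of 0.45 (SE 0.10, adjusted p 0.0112). Its KO libraries split by letter, with 7.46, 7.77, 9.01 and 7.87 in A and 5.11, 5.92, 5.03 and 5.01 in B. The intergenic region nearest to ADAM19, a metalloprotease gene, also rose (0.39, SE 0.10, adjusted p 0.0289).

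5 core regions fell in KO. The region over a start site of MET, the hepatocyte growth factor receptor gene, at chr7:116670938-116718197, had folds of 9.63 and 9.59 in WT esiCT UNT, 6.35 and 6.31 in WT esiCT OXPT, 8.45 and 7.83 in WT esiHDAC4 UNT and 7.17 and 6.94 in WT esiHDAC4 OXPT. The KO values in the same order were 6.56 and 5.61, 6.81 and 6.87, 4.82 and 4.90, and 5.49 and 5.85. Untreated WT cells thus had the highest values and untreated KO cells with esiHDAC4 the lowest. In the esiCT OXPT groups the KO values lay above the WT values. After centring and over all groups, MET fell by 0.33 on the log2 scale (SE 0.10, adjusted p 0.0431). A region at chrX:45695432-45723047 on the other side of the miR-221 and miR-222 genes from the region named above had folds of 5.83 to 10.7 in WT (median 7.51) and 4.25 to 6.77 in KO (median 5.19), and fell by 0.52 (SE 0.13, adjusted p 0.0235). An intronic region of MAGI1, a scaffold gene of tight junctions (chr3:65936385-65973504), fell by 0.45 (SE 0.12, adjusted p 0.0328), with folds of 5.00 to 7.68 in WT and 3.64 to 5.64 in the 6 KO libraries with a peak there. CYTH4, an ARF exchange factor gene, fell by 0.42 (SE 0.11, adjusted p 0.0307), with folds of 6.03 to 11.9 in WT (median 8.36) and 4.99 to 7.32 in KO (median 5.88), which overlap. MYOF, the myoferlin gene, fell by 0.35 (SE 0.10, adjusted p 0.0431). By peak number, tested below, CYTH4 and MYOF had the opposite sign, 0.53 and 0.38 (adjusted p 0.0894 and 0.225). MET, MAGI1 and the X-chromosome region had the same sign in both readouts. For all 9 regions the differences within the A libraries and within the B libraries had the same sign. Under 23 other settings the call of KRT80 was kept in 21, that of HAS3 in 20 and that of the X-chromosome region in 16. The CYTH4 call was kept in 13 of these, that of MYOF in 8 and that of MET in 6. MAGI1 kept its call in 10 of 21 settings and ADAM19 in 13 of 22. The sign of HAS3 and MYOF turned when the median fold of the peaks replaced the strongest.

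**Figure D4:**
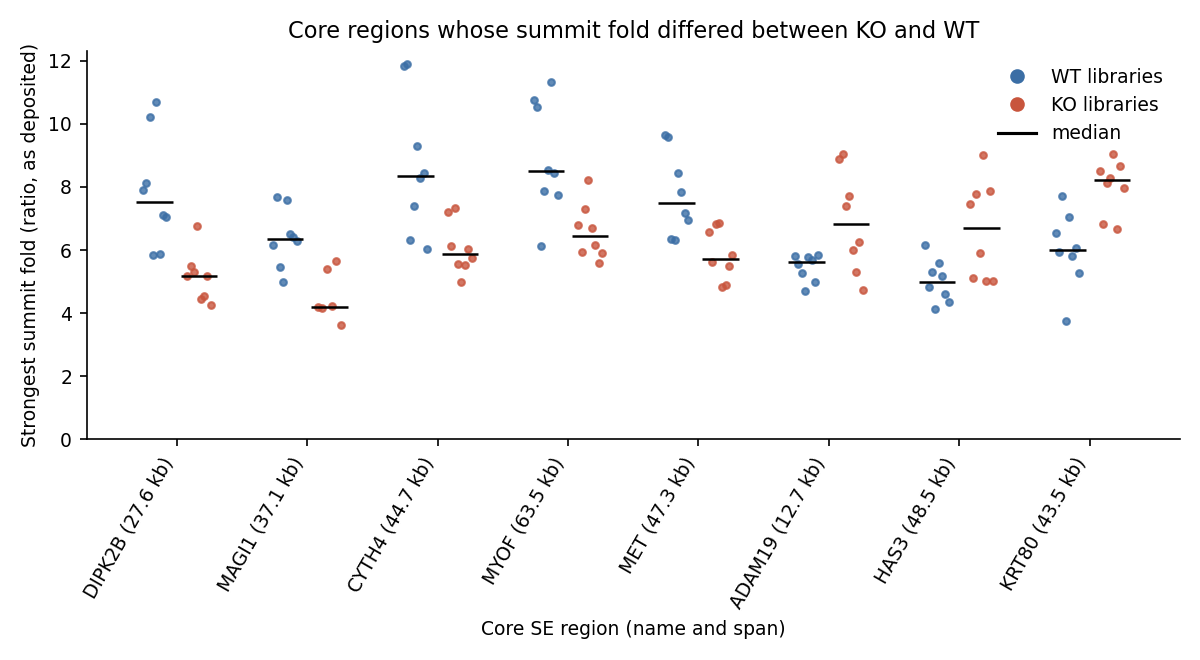
Strongest summit fold in every library for 8 of the 9 core regions called between KO and WT (blue points WT, red points KO, black line median). The KRT80 and HAS3 points of KO sit toward the top and those of MET, CYTH4 and the X-chromosome region toward the bottom, with overlap of the groups in each region.

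The number of peaks in each region was compared in the same way, as log2(number + 1) centred on the library mean. 24 core regions changed between KO and WT (11.6%), 7 up and 17 down, beside 10.5% of all regions, so here too the core share was near the background. KO libraries held fewer peaks, and the median of all regions without centring was -0.50, with which 0 core regions were higher and 39 lower. The median of core peaks per library was 2414 in WT and 1934 in KO, the lowest background per library was also lower in KO (above), and the part of depth in these counts was not tested. Without KO esiHDAC4 UNT B 7 were called, and limma on the base pairs covered by peaks in place of their number called 0, with 31 core regions and 119 of all 838 at an unadjusted p under 0.05.

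The MIR222HG region on the X chromosome, named after DIPK2B by the nearest protein-coding start site in the plots, chrX:45749980-45831149, showed the widest gap. Its WT libraries held 25 and 22 peaks (esiCT UNT), 14 and 6 (esiCT OXPT), 17 and 32 (esiHDAC4 UNT) and 10 and 20 (esiHDAC4 OXPT). The KO libraries held 4 and 4, 7 and 4, 7 and 0, and 7 and 1. The KO counts reached 7 and the WT counts came down to 6, so the groups just overlap, and the difference was -1.48 (SE 0.24, adjusted p 0.000678), or -1.28 (adjusted p 0.00706) without KO esiHDAC4 UNT B. Limma on the covered base pairs did not call this region (adjusted p 0.338). Its summits rested on a median of 16 reads, the lowest of the core, where the median region had 25. In the MAGI1 region WT libraries held 6 to 11 peaks and KO libraries 0 to 4, with no overlap, and it fell by 1.29 (SE 0.21, adjusted p 0.000678). MAGI1 was the 1 core region called by both readouts. ELF3, an epithelial transcription factor gene of the ETS family (chr1:202005691-202118993), held 10 to 35 peaks in WT (median 27) and 1 to 21 in KO (median 8), and fell by 1.11 (SE 0.22, adjusted p 0.00304).

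KITLG, the gene of the KIT ligand, held 10 to 22 peaks in WT and 1 to 12 in KO, and its start-site region (chr12:88529424-88581764) fell by 1.08 (SE 0.21, adjusted p 0.00304). The intergenic core region nearest to KITLG had the opposite sign, 0.79 (SE 0.26, adjusted p 0.053). CDCP1, a transmembrane substrate of SRC kinases (chr3:45091781-45147071), held 10 to 20 peaks in WT and 3 to 7 in KO. The groups did not overlap, and CDCP1 fell by 0.94 (SE 0.21, adjusted p 0.00613). In that region the peaks covered 28.1 and 23.4 kb in WT esiCT UNT and 4.4 and 2.47 kb in KO esiCT UNT. Over all groups, limma on the covered base pairs did not call CDCP1 (adjusted p 0.845). CAV2, a caveolin gene, and ACTN4 also held fewer peaks in each KO library than in any WT library. The regions nearest to KCNH3, CYP24A1, PHLDA1, SYT1, BHLHE40, ARHGAP18, DUSP5, STK39, EPHA2 and SOX9 fell as well, the last with a difference of 0.07 within the A libraries and -1.90 within the B libraries. The calls of the MIR222HG, MAGI1, ELF3, KITLG, CDCP1 and KCNH3 regions were kept in 20 of 21 other settings. Those that rose relative to the library mean were nearest to DCBLD2 (0.97), PRKACB (0.88), BTC (0.88), MTAP (0.87), CERKL (0.77), ANGPT2 (0.73) and MMEL1 (0.72). None of these rises was called without centring. Without KO esiHDAC4 UNT B the differences were 0.865, 0.748, 0.801, 0.614, 0.654, 0.883 and 0.654 in the same order. In DCBLD2, PRKACB, BTC, MTAP and CERKL the difference was larger within the B than within the A libraries, 1.61 against 0.324 for DCBLD2. In ANGPT2 (0.72 and 0.747) and MMEL1 (0.677 and 0.767) it was slightly smaller within B than within A. The MMEL1 region had a highest local background 20.1 times the lowest of the library in the median, far above that of most core regions, and its values are uncertain. PRKACB, which encodes a catalytic subunit of protein kinase A, held a median of 9.5 peaks in WT and 12 in KO, and the region 86.4 kb from BTC, the betacellulin gene, 16 and 19.5. Of the 24 regions 20 had the same sign in the summit fold.

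**Figure D5:**
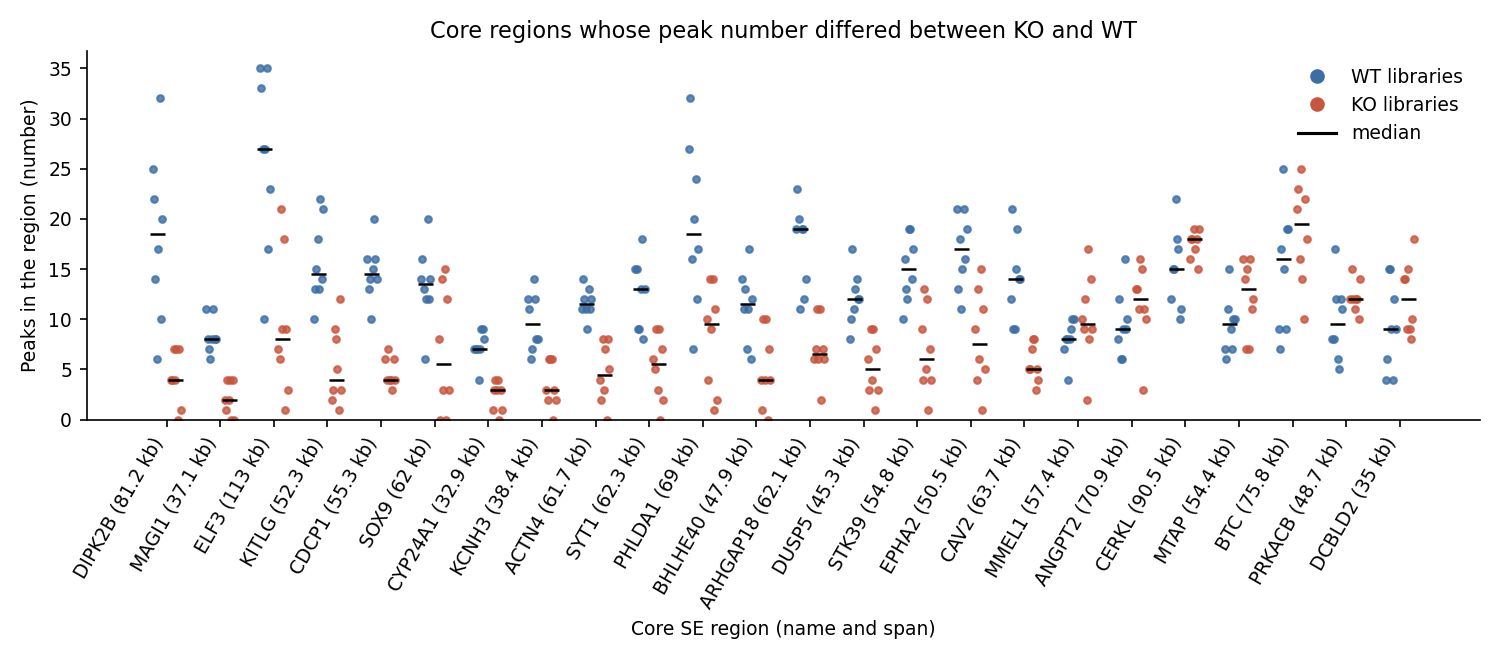
Number of H3K27ac peaks in every library for the 24 core regions called between KO and WT by peak number (blue points WT, red points KO, black line median). Counts are shown without centring, and KO libraries held fewer peaks in general. In MAGI1 and CDCP1 each KO library lies below each WT library, and in the MIR222HG region, labelled DIPK2B, KO libraries hold 0 to 7 peaks and WT libraries 6 to 32.

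In WT cells with esiCT the deposited folds of the OXPT libraries were lower than those of the UNT libraries in most core regions. Both OXPT libraries had a lower strongest fold than both UNT libraries in 164 of the 207 core regions (79.2%), beside 60.9% of the 803 regions with a value in all 4 libraries, and a higher one in 1 (0.483%), beside 1.49%. In KO esiCT both were lower in 13 of 206 (6.31%), beside 6.82%, and higher in 50 (24.3%), beside 22.1%. Before centring the core median was -0.40 in WT (all regions -0.36) and 0.06 in KO (all regions 0.07), and the difference of these responses had a core median of 0.49 (all regions 0.43). The lowest adjusted p of a core region before centring was 0.0568 for OXPT in WT esiCT, shared by regions such as those of LIF (-0.79), PCDH7 (-0.77) and the Polycomb gene PHC2 (-0.82). It was 0.0912 for the difference between KO and WT, at the IRS1 start-site region (1.32). These shifts ran over nearly all regions. Centring removes a shift common to all regions, and a common change of the mark and a difference in enrichment between libraries cannot be told apart here.

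Relative to that common shift limma called no core region for OXPT against UNT over all groups, beside 0.358% of all regions called. At an unadjusted p under 0.05 there were 10 of the 207 core regions and 94 of all 838. For esiHDAC4 against esiCT it called 0, beside 0.0% of all, with 4 core regions and 30 of all at the unadjusted p. In the pairs of groups it called 0 core regions in each case, beside 0.119% of all for OXPT in WT esiCT and 0.0% for OXPT in KO esiCT, for the difference between these responses, for esiHDAC4 in KO OXPT and for esiHDAC4 in WT OXPT. In the same order 1, 6, 2, 6 and 1 core regions had an unadjusted p under 0.05, and 47, 47, 39, 48 and 24 of all 838 did. Peak numbers gave 0 for OXPT, beside 0.477% of all, with 20 core regions and 110 of all at the unadjusted p, and 0 for esiHDAC4, beside 0.0%, with 5 and 40. With 2 libraries a group these tests leave wide intervals, most of all in the pairs of groups. The comparisons over all groups set 8 libraries against 8.

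The members with the smallest p are given by value only. For OXPT against UNT the EREG region stood at -0.23 (SE 0.11, adjusted p 0.422) and the region nearest to ODAD2 at -0.27 (SE 0.11, adjusted p 0.371). For esiHDAC4 the region of ZNF217, a transcription factor gene amplified in several cancers, stood at -0.28 (SE 0.11), one nearest to the pseudokinase gene TRIB1 at -0.28 (SE 0.10), the nuclear receptor gene NR4A2 at 0.29 (SE 0.13) and the SP1 region at 0.28 (SE 0.11), each with an adjusted p of 0.95. The IRS1 start-site region had the smallest p for the difference between the OXPT responses, 0.87 (SE 0.33, adjusted p 0.839) after centring. By peak number the KITLG start-site region stood at 0.68 for OXPT (SE 0.21, adjusted p 0.137) and TMOD3 at 0.77 (SE 0.22, adjusted p 0.102).

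Some core regions lay in or beside repeated DNA, where reads of several copies may be counted together, and their values are uncertain. One lies at chr21:8228488-8237835, beginning 9.19 kb after the end of RNA45SN2, a 45S ribosomal RNA unit, and 2284 kb from the nearest protein-coding start site, that of TPTE. The highest local background of this region was 102 times the lowest of the library in the median, compared with 20.1 times at MMEL1 and at most 4.68 times in the other 205 core regions. Its median strongest fold, 3.71, was the lowest of the core. In WT esiCT the folds were 3.54 and 3.15 in UNT and 4.67 and 4.78 in OXPT, a difference of 0.90 after centring (SE 0.21, adjusted p 0.0538), and over all groups OXPT minus UNT was 0.41 (SE 0.11, adjusted p 0.0906). Another, nearest to FOXD4L5, lies in duplicated DNA of chromosome 9, and in KO OXPT its folds were 6.63 and 5.99 with esiCT and 10.66 and 11.14 with esiHDAC4 (0.99, SE 0.24, adjusted p 0.337).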

How the data were processed

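H3K27ac ChIP-seq libraries of HCT-116 cells were taken as deposited, and the 4 input samples were not used here. The authors used Trimmomatic 0.39 for trimming and Bowtie2 2.4.4 for alignment to hg38, removed duplicates with SAMtools 1.18 and called peaks per library with MACS2 2.2.7.1 (versions from the submitters' processing notes), and they called SEs with ROSE. The deposited peak lists give the summit fold over local background (a ratio), −log10 p and q values and a score per peak. The deposited SE lists give positions. Peaks hold q values under 0.05, and the sources used here name neither the control behind the background nor whether an H3K4me1 filter was applied to the deposited SE lists. Of 272083 peaks and 8323 SEs, 534 and 28 outside chromosomes 1 to 22 and X were left out.

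SEs of the 16 libraries were merged by 1 bp, and regions called in 11 or more libraries were kept as members. Members and lists were chosen with earlier results of these data known. Regions were named by protein-coding start sites within them (GENCODE 44), otherwise by the nearest one. Named in the text are the regions called in most libraries, the widest, those of highest median fold, those with the smallest p in each direction of each comparison, all called regions, the widest called in 11 and in 10 libraries, and those with start sites of listed genes; other names were chosen after their values were seen. The fourth region that rose in KO by summit fold and 1 leukocyte marker are not reported here. The gene lists were intestinal epithelial transcription factors, WNT, AP-1 and ATF, epithelial, EGFR and MAPK, p53, YAP and TEAD, TGF-beta, and class IIa HDAC, MEF2 and FBXW7-related genes. The log2 strongest fold and log2(peak number + 1) were tested with limma 3.58.1 (R 4.3.3), with group and replicate letter as terms, over 838 regions with a peak in 14 or more libraries, two-sided, with Benjamini-Hochberg adjustment. The test was first run on simulated data. Reads at a summit and its background were solved from the deposited fold and −log10 p of each peak, which was possible for 98.87 to 100% of peaks per library, and stand in for depth. Positions, sequences and motifs were read with Python 3.11.15 and pysam 0.24.0. The study's own differential binding step and its between-sample normalization were not repeated here.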

Additional observations from a re-analysis of the deposited data

How the results depend on the processing

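The 207 core regions were 247 and 178 with 10 and 12 libraries as the minimum, 206 with a merging distance of 10 kb, 81 where SEs had to cover the larger part of a merged region, and 179 to 207 without any 1 library. Summit fold, KO against WT: the 9 calls became 1 with no replicate block, 0 with missing values set to the library's lowest fold, 2 with the median fold of the peaks, 10 without centring and 2 to 14 without any 1 library, with 5 and 4 without WT esiCT UNT A and B, 3 without WT esiCT OXPT B or WT esiHDAC4 UNT A, 2 and 5 without WT esiHDAC4 OXPT A and B, 4 without KO esiCT OXPT B, 14 without KO esiHDAC4 UNT A, and 3 and 4 without KO esiHDAC4 OXPT A and B. With peaks of a −log10 q of at least 5, 1 core region was called for OXPT against UNT, 1 for OXPT in WT esiCT and 1 for esiHDAC4 in KO OXPT, each in place of 0, and OXPT in WT esiCT also gave 1 over regions with a peak in all 16 libraries. Leaving out 1 library gave 0 to 6 for OXPT (6 without KO esiHDAC4 UNT A, 1 without KO esiCT UNT B), 0 to 5 for esiHDAC4 (5 without KO esiHDAC4 UNT A), 0 to 1 for OXPT in WT esiCT (1 without KO esiCT UNT A), and 0 in each case for the other 4 comparisons. Peak number, KO against WT: the 24 calls became 39 without centring, 15 with no replicate block, 15 with peaks of at least 4-fold, 0 by covered base pairs, 20 over all merged regions and 7 to 47 without any 1 library, with 11 without WT esiCT UNT B or WT esiHDAC4 UNT B, 15 without WT esiCT OXPT B or KO esiCT OXPT B, 9 without WT esiHDAC4 OXPT B, 47 and 7 without KO esiHDAC4 UNT A and B, and 12 without KO esiHDAC4 OXPT B. OXPT by peak number gave 1 over all merged regions and 0 to 1 without any 1 library (1 without KO esiHDAC4 UNT B or KO esiHDAC4 OXPT B), and esiHDAC4 gave 0 in each case. The causes of these moves were not tested. The replicate letter was a term of the fit, although the labels do not say what libraries of 1 letter share. Deviations of libraries with the same letter correlated by -0.14 to 0.41 (median 0.07, 28 pairs of groups); apart from the 2 KO comparisons above, leaving out the replicate block changed no count. Summits rest on few reads, 13 to 25 per library in the median.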
